A study of Mus musculus with 16 samples.

Results

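Conventional dendritic cells that had lost TRIM33 were compared between their 2 subsets, cDC1s and cDC2s, to see how far the subsets stayed distinct without this protein. The comparison set 2 libraries of cKO cDC1s against 3 libraries of cKO cDC2s, 5 of the 16 RNA-seq libraries of the series. All genes with a mean of at least 1 TPM, the abundance of transcripts scaled for their length and for library depth, over these 5 libraries were taken, which gave 11281 of the 17721 genes of the cDC table. Of these, 11252 carried a symbol and 6440 genes of the table fell below the limit, 588 of them listed at 0 in all 5 libraries. Myl3 lay just under the limit at 0.996 TPM and Tymp at it with 1.0 TPM. The cKO mice were Trim33 fl/fl Itgax-Cre, in which Cre is driven by the promoter of Itgax, the gene of CD11c, so that the deletion is not limited to 1 subset and spares cells that have not expressed Itgax. The WT mice were Trim33 fl/fl without Cre, and they gave 2 libraries of cDC1s and 3 of cDC2s. Mice of both genotypes were C57BL/6 and 6 to 8 weeks old, and the titles number the libraries as replicates without saying whether a cDC1 and a cDC2 library came from the same animals. By the paper, each library was a pool from several mice, with more mice per cKO than per WT library. cDC1s were sorted from spleen as CD11c+ SiglecH- MHC II+ CD24+ CD172a- cells and cDC2s as CD11c+ SiglecH- MHC II+ CD24- CD172a+ cells, after non-DC lineages had been depleted.

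TRIM33 is an E3 ubiquitin ligase of the TRIM family that binds modified histones and acts in transcription, in part together with SMAD proteins downstream of TGF-β. cDC1s take up dying cells through CLEC9A, cross-present their antigens to CD8 T cells and depend on the transcription factors IRF8 and BATF3. cDC2s present antigen mainly to CD4 T cells, carry CD11b and CD172a, and in the spleen depend in part on IRF4 and NOTCH2 signals.

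Trim33 itself was measured at 7.88 and 7.71 TPM in the cKO cDC1 libraries and at 7.93, 7.13 and 8.07 TPM in the cKO cDC2 libraries, against 15.5 and 18.2 TPM in WT cDC1s and 20.6, 18.2 and 17.2 TPM in WT cDC2s. The 5 cKO values lay below all 5 WT values, and the cKO subsets were not called apart (log2 difference 0.02, adjusted p 0.928 in limma). These values count reads over the whole gene, and exons outside the floxed part can still yield reads. The genes of the sort markers followed the gates and are no finding: Cd24a stood at 693 and 682 TPM in cKO cDC1s and 25.3, 30.9 and 31.5 TPM in cKO cDC2s, and Sirpa, the gene of CD172a, at 6.34 and 6.82 and at 582, 451 and 554 TPM. Estimated depth was 19.3 to 20.1 M reads in the 5 cKO libraries and 18.4 to 20.1 M over all 10 cDC libraries, so that 1 TPM on a 2000-base transcript stood for 17.3 to 21.2 reads. The 10 most abundant genes took 12.4% and 12.6% of the TPM of the cKO cDC1 libraries and at least 11.7% of each cKO cDC2 library. Their share was higher in the WT cDC1 libraries, at 15.6% and 14.8%, and was 11.4% to 12.2% in the WT cDC2 libraries. Library 3 of the cKO cDC2s held more of several cDC1 genes than libraries 1 and 2, with Xcr1 at 1.71, 2.14 and 5.82 TPM and Clec9a at 12.2, 8.53 and 18.5 TPM in libraries 1, 2 and 3. Library 1 of the WT cDC2s likewise held more Xcr1, at 6.6 TPM against 2.73 and 1.97 TPM in libraries 2 and 3. Among the WT libraries, which serve here as the reference, WT cDC1 library 1 and WT cDC2 library 2 held the Y-linked Ddx3y at 0.02 TPM each, while the other 8 cDC libraries held 23.8 to 41.2 TPM. WT cDC2 library 2 also held 10743 TPM of erythroid genes, against 385 to 3193 TPM in the other 9.

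Among the sorted cells the subsets remained far apart without TRIM33. Cells outside both gates, such as those with both or neither of CD24 and CD172a, were not measured. On the scale of log2(TPM + 1), 1669 genes (14.8% of those tested) were higher in cKO cDC1s and 1574 (14.0%) were higher in cKO cDC2s by limma, where a call needed an adjusted p no higher than 0.01 and a log2 difference of 0.5 or more in size. In all 3243 of these genes the 2 groups of libraries did not overlap, which was so for 69.3% of all genes tested. Genes higher in cDC1s had a median difference of 0.89, and 668 of them differed by at least 1, 169 by at least 2 and 31 by at least 4. Genes higher in cDC2s differed by more, with a median size of 1.23, and 986, 369 and 65 of them passed these limits. Without library 3 of the cKO cDC2s the counts were 1408 and 1276. Without cKO cDC1 library 1 they were 947 and 1055 and without library 2 they were 1054 and 1077, in fits where the remaining cKO cDC1 library was assumed to vary like the other groups.

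Between libraries, a cKO cDC1 and a cKO cDC2 library differed by a root mean square of 0.927 to 0.971 on the log2 scale over all genes tested (6 pairs), against 0.226 between both cKO cDC1 libraries and 0.248 to 0.330 among the cKO cDC2 libraries. A WT cDC1 and a WT cDC2 library differed by 0.975 to 1.08. The pairs of cKO cDC1s with WT cDC1s differed by 0.667 to 0.769 and those of cKO cDC2s with WT cDC2s by 0.453 to 0.557. In a principal component analysis of the 10 libraries the first component held 66.3% of the variance and separated cDC1s, with scores of 57.6 to 60.3, from cDC2s, with scores of −46.2 to −32.4. The second held 19.8% and separated the genotypes within each subset. The cKO cDC2 libraries lay nearer to the cDC1 side than the WT cDC2 libraries did, at −36.6 to −32.4 against −46.2 to −41.3.

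**Figure D1:**
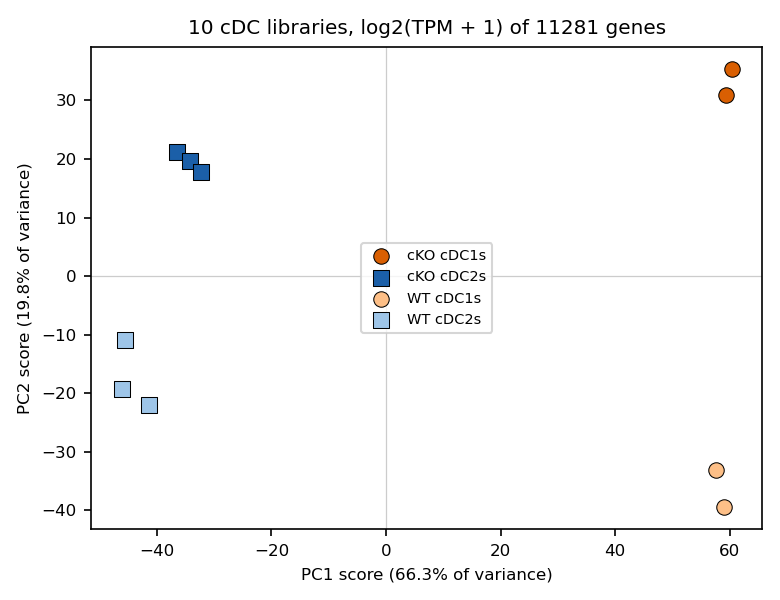
Scores of the 10 cDC libraries on the first (x axis) and second (y axis) principal component of log2(TPM + 1), 1 point per library, circles for cDC1s and squares for cDC2s, dark for cKO and pale for WT. All cDC1 libraries lie at 57.6 or more and all cDC2 libraries at −32.4 or less on the first component, and the 2 genotypes lie on opposite sides of 0 on the second.

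The same contrast in WT cells gave 1215 genes higher in cDC1s (10.8%) and 2322 higher in cDC2s (20.6%). This WT split depended on scaling: it was 1276 and 1861 with FPKM, 1785 and 1672 with median-of-ratios scaling and 1730 and 1556 with quantile normalization, while the cKO split stayed between 1459 and 1753 genes higher in cDC1s and between 1516 and 1686 higher in cDC2s. Of the genes higher in WT cDC1s, 907 (74.7%) were also higher in cKO cDC1s, which was 54.3% of the latter. Of the genes higher in WT cDC2s, 1256 (54.1%) were also higher in cKO cDC2s, 79.8% of the latter. These shares rest on the TPM calls and so on the WT split that depended on scaling. Called in opposite directions were 14 genes, 11 higher in WT cDC1s and in cKO cDC2s and 3 the reverse. Across genes, which are not independent replicates, the cKO and the WT differences correlated with r = 0.850, and the slope of the cKO on the WT difference was 0.80. Both contrasts share no library. A log2 difference of at least 2 in size was seen in 539 genes in cKO and in 656 in WT, and the SD over all genes was 0.928 and 0.986.

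Whether a subset difference itself differed between genotypes was tested with the interaction, the cKO difference minus the WT difference. It was above 0 for 128 genes (1.13%) and below 0 for 143 (1.27%). The median over all genes was 0.22, and the WT differences had a median of −0.17 and the cKO differences one of 0.05. Counted from that median, 127 genes lay above and 143 below by at least 0.5. With median-of-ratios scaling the median was 0.01 and the counts were 95 and 264. Without cKO cDC1 library 1 the interaction passed for 62 genes in all, without cKO cDC1 library 2 for 78, without WT cDC1 library 1 for 91 and without cKO cDC2 library 3 for 99. Among 580 genes with a symbol, at least 10 TPM in the highest group and a WT difference called at 2 or more in size, 549 were called in the same direction in cKO and 30 were not called.

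**Figure D2:**
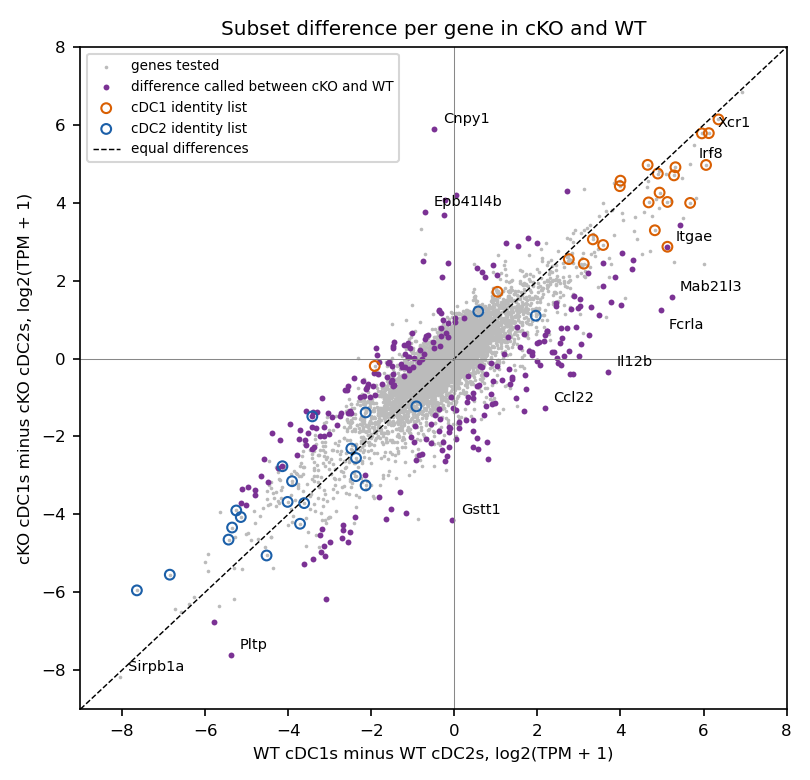
Log2(TPM + 1) difference of cDC1s minus cDC2s in WT (x axis) and in cKO (y axis), 1 point per gene for 11281 genes, with genes whose interaction was called in purple and the identity lists of cDC1s and cDC2s ringed in orange and blue. Most genes lie along the dashed line of equal differences, Xcr1 and Sirpb1a lie near its ends, and Cnpy1 (5.88 in cKO, −0.48 in WT) and Il12b (−0.35 and 3.70) lie far from it.

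Nearly the whole cDC1 identity list was higher in cKO cDC1s. The list held 22 genes, all tested, of which 21 were higher in cKO cDC1s and 0 in cKO cDC2s, with a median log2 difference of 4.14 against 0.05 over all genes tested and 4.86 for the same list in WT. The 21 genes were 95.5% of the list, against 14.8% of all genes. Xcr1, the receptor for the chemokine XCL1, stood at 202 and 224 TPM in cKO cDC1s and 1.71, 2.14 and 5.82 TPM in cKO cDC2s, a difference of 5.79 (SE 0.42, adjusted p 2.25e-06). Clec9a, the receptor for actin exposed by dead cells, stood at 216 and 213 against 12.2, 8.53 and 18.5 TPM (4.0, SE 0.29, adjusted p 2.47e-06). Both WT cDC1 libraries held more Clec9a, 547 and 536 TPM, than both cKO cDC1 libraries. Tlr3, the sensor of double-stranded RNA, stood at 232 and 217 against 5.38, 5.6 and 7.77 TPM, a difference of 4.97 in cKO and 4.65 in WT. Cd8a was measured at 187 and 228 against 10.5, 8.7 and 17.8 TPM, Cadm1 at 54.5 and 60.5 against 4.36, 3.21 and 8.36 TPM and Naaa, an acid amidase, at 1419 and 1499.6 against 72.3, 58.8 and 99.7 TPM. In each of these genes the cKO cDC1 libraries lay above all 3 cKO cDC2 libraries.

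Itgae, the gene of CD103, was the member of the cDC1 list whose difference was called narrower in cKO. It stood at 9.63 and 10.1 TPM in cKO cDC1s and 0.26, 0.23 and 1.11 TPM in cKO cDC2s, with 77.7 and 62.00 TPM in WT cDC1s and 1.42, 0.99 and 0.69 TPM in WT cDC2s. The difference was 2.87 in cKO and 5.13 in WT, and the interaction was −2.26 (SE 0.34, adjusted p 0.00434). That call was lost without either cKO cDC1 library or without WT cDC1 library 1, at an adjusted p of 0.0236 to 0.0324. Wdfy4, needed for cross-presentation of cell-borne antigen, had the smallest difference of those called, with 980 and 854 against 323, 241 and 277 TPM (1.71). L1cam did not follow the list, at 12.7 and 10.00 against 16.1, 9.12 and 14.9 TPM (−0.19, adjusted p 0.551), and its WT difference of −1.92 was called in the direction of cDC2s.

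Of the cDC2 identity list, 21 of 22 genes were tested (Il1r1 fell below the limit), and 19 were higher in cKO cDC2s and 2 in cKO cDC1s. These were 90.5% and 9.52% of the genes tested, against 14.0% and 14.8% of all genes. The median difference was −3.26, against 0.05 over all genes tested and −3.71 for the same list in WT. Itgam, the gene of CD11b, stood at 11.3 and 9.44 TPM in cKO cDC1s and 214, 166 and 191 TPM in cKO cDC2s (−4.07, SE 0.16, adjusted p 4.15e-08). S100a4 was the most abundant member, at 106 and 112 against 2365, 3209 and 2761 TPM. Dtx1 stood at 1.32 and 2.12 against 142, 123 and 112 TPM in cKO and at 1.39 and 1.64 against 235, 253 and 404 TPM in WT (interaction 1.3, SE 0.31, adjusted p 0.0303, not called). In cKO, Esam stood at 1.34 and 1.61 against 22.9, 23.2 and 21.7 TPM and Cd4 at 2.14 and 3.16 against 135, 108 and 117 TPM. Cd209a, a C-type lectin, stood at 29.6 and 31.2 against 415, 360 and 432 TPM, and Csf1r, the receptor for CSF1, at 22.4 and 21.97 against 345, 232 and 346 TPM. For all of these genes the groups were apart by more than the range within either.

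Within the cDC2 list, 2 genes had a narrower difference in cKO by the interaction. Cd22, an inhibitory lectin of the SIGLEC family, stood at 45.3 and 36.7 TPM in cKO cDC1s, 139, 102 and 109.5 TPM in cKO cDC2s, 9.85 and 13.04 TPM in WT cDC1s and 117, 113 and 169.9 TPM in WT cDC2s. The cKO cDC1 libraries lay above the WT cDC1 libraries and the cDC2 groups overlapped, and the interaction was 1.93 (SE 0.29, adjusted p 0.00385). Cd7 gave an interaction of 1.37 (adjusted p 0.00839), from 69.7 and 89.4 TPM in cKO cDC1s against 573, 528 and 527 TPM in cKO cDC2s. Both calls were lost in several fits that left out 1 library, Cd22 in 5 of 10 (adjusted p 0.0107 to 0.0321) and Cd7 in 9 of 10 (adjusted p 0.0128 to 0.0452), and Cd7 was called in none of the other 3 scalings. Clec12a and Jaml were higher in cKO cDC1s, by 1.1 and 1.21, as they were in WT cDC1s (1.96 and 0.58). Without cKO cDC1 library 2 the call of Clec12a was lost, at an adjusted p of 0.0139.

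**Figure D3:**
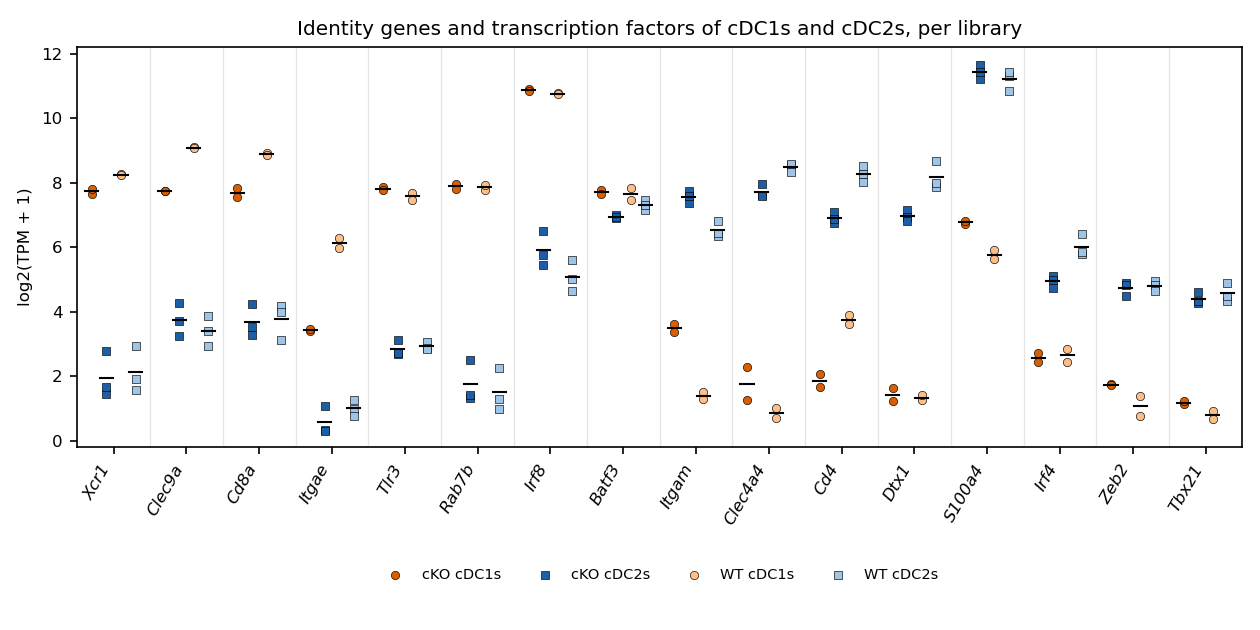
Level of 16 identity genes and transcription factors as log2(TPM + 1) (y axis) in each of the 10 cDC libraries, 1 point per library with the group mean as a bar, for cKO cDC1s, cKO cDC2s, WT cDC1s and WT cDC2s from left to right within a gene. The first 8 genes are higher in cKO cDC1s and the last 8 in cKO cDC2s, and Itgae in cKO cDC1s lies well under its WT cDC1 level.

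The largest differences toward cDC1s were led by Gpr141b, a G protein-coupled receptor, with 254 and 274 TPM in cKO cDC1s and 0.42, 0.31 and 5.66 TPM in cKO cDC2s (6.84, SE 0.68, adjusted p 2.18e-05). Library 3 stood out among the cKO cDC2s for this gene, as did library 1 among the WT cDC2s (5.86 against 1.29 and 0.92 TPM). Rab7b, an endosomal GTPase, followed with 249 and 225 against 1.51, 1.69 and 4.67 TPM (6.14). Ifi205, of the interferon-inducible HIN-200 family, stood at 1147 and 1154 against 12.3, 18.6 and 34.05 TPM (5.78). Pdia5, a protein disulfide isomerase, P2ry14, the receptor for UDP-glucose, Gcsam, the scavenger receptor Cd36 and the actin-binding protein gene Dbn1 had differences of 5.48, 5.29, 4.97, 4.91 and 4.82. Cnpy1 was the only one of the 12 largest toward cDC1s whose interaction was called, and it is described with the genes raised without TRIM33.

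Toward cDC2s the largest difference was that of Sirpb1a, a signal regulatory protein, with 0.60 and 1.44 TPM in cKO cDC1s and 543, 624 and 545 TPM in cKO cDC2s (−8.17, SE 0.26, adjusted p 1.32e-08). Its neighbours on chromosome 3, Sirpb1b, Sirpb1c and Gm9733, had differences of −6.5, −6.76 and −6.43. These are close copies, between which the counting of 50-base reads is uncertain, and the same holds for Clec4a1 (−6.3), Clec4a3 (−6.18) and Clec4a4 (−5.95) on chromosome 6. Pltp, the phospholipid transfer protein, stood at 0.43 and 0.80 TPM in cKO cDC1s, 379, 267 and 304 TPM in cKO cDC2s and 47.5, 78.7 and 81.3 TPM in WT cDC2s, so that its difference was −7.61 in cKO and −5.36 in WT (interaction −2.25, SE 0.33, adjusted p 0.0036). Ace, angiotensin-converting enzyme, stood at 0.36 and 0.34 against 128, 67.3 and 105 TPM in cKO and 2.99 and 1.62 against 16.99, 23.9 and 45.3 TPM in WT (interaction −3.09, adjusted p 0.00775). Tgm2, transglutaminase 2, differed by −6.36. The interaction of Sirpb1c (−0.97, adjusted p 0.00423) was called as well. In fits that left out 1 library the interactions of Pltp, Sirpb1c and Ace lost their calls in 4, 5 and 7 of 10, at adjusted p values up to 0.0289, 0.0294 and 0.0472.

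Subset transcription factors were compared next, with 33 of 34 tested. In cKO cDC1s 6 were higher (18.2%, against 14.8% of all genes) and in cKO cDC2s 10 (30.3%, against 14.0%). The median difference was −0.43 against −0.22 in WT. Irf8, on which cDC1s depend, stood at 1928 and 1855 TPM in cKO cDC1s and 53.2, 42.3 and 89.8 TPM in cKO cDC2s (4.99, SE 0.31, adjusted p 6.68e-07), with 1754 and 1720.2 TPM in WT cDC1s. Batf3, its partner at enhancers, stood at 217 and 199.6 against 119, 126 and 122 TPM (0.76), and Id2, an inhibitor of E proteins, at 1125 and 1080.2 against 484, 614 and 513 TPM (1.04). The repressor Bcl6, Zfp366 (DC-SCRIPT) and the Notch effector Rbpj were the others higher in cDC1s, by 0.95, 1.2 and 0.96. Leaving out a cKO cDC1 library lost the calls of Batf3 (adjusted p 0.0121 without library 1), Bcl6 (0.0126 without library 1) and Id2 (0.0124 and 0.017 without either).

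Irf4, which cDC2s need for migration and priming of CD4 T cells, stood at 4.42 and 5.58 TPM in cKO cDC1s and 33.3, 25.6 and 30.8 TPM in cKO cDC2s (−2.36, SE 0.21, adjusted p 9.17e-06). Zeb2, a repressor that opposes the cDC1 fate, stood at 2.36 and 2.3 against 28.8, 21.4 and 27.6 TPM (−3.01). Tbx21, the gene of T-bet and a mark of one branch of cDC2s, stood at 1.21 and 1.32 against 23.3, 18.3 and 19.4 TPM (−3.23). The NF-κB subunits Relb and Rel differed by −2.62 and −1.41, Spib by −2.82, Prdm1 by −2.45, Cebpb by −1.52 and Etv3 by −1.13. Ets1 was the factor whose difference was narrower in cKO, at 0.93 and 0.85 against 2.48, 2.16 and 2.25 TPM in cKO and 0.63 and 0.62 against 8.55, 9.0 and 9.93 TPM in WT (interaction 1.84, SE 0.18, adjusted p 0.000468). Klf4, whose WT difference of −2.23 was called, had a difference of −0.97 in cKO that was not (adjusted p 0.124), and its interaction of 1.25 was not called either (adjusted p 0.237). Spi1, the gene of PU.1, stood at 599 and 609 against 822, 696 and 785 TPM (adjusted p 0.0474). With FPKM, and with a limit of 5 TPM, Ets1 fell below the expression limit and was not tested. Rel lost its call without any one of the 5 cKO libraries (adjusted p 0.0104 to 0.0391) and Etv3 without either cKO cDC1 library (up to 0.015).

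Of 18 genes that both subsets share, all tested, 4 were higher in cKO cDC1s (22.2%, against 14.8% of all genes) and 2 in cKO cDC2s (11.1%, against 14.0%), with a median of −0.22. Zbtb46, a factor of committed cDCs, stood at 89.9 and 86.7 against 97.4, 88.5 and 88.8 TPM (−0.05, adjusted p 0.755) and the groups overlapped. Flt3, the receptor of the DC growth factor FLT3L, was higher in cKO cDC1s at 379.8 and 379 against 249, 216 and 246 TPM (0.68, adjusted p 0.00102), and this call was lost without either cKO cDC1 library (adjusted p 0.0119 and 0.0129). Adam19 (2.14) and Ap1s3 (1.21) were also higher in cDC1s, beside Jaml, and Csf2rb (−0.8) and Itgax (−1.17) were higher in cDC2s, of which Csf2rb lost its call without either cKO cDC1 library or cKO cDC2 library 3 (adjusted p 0.0103 to 0.0235).

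**Figure D4:**
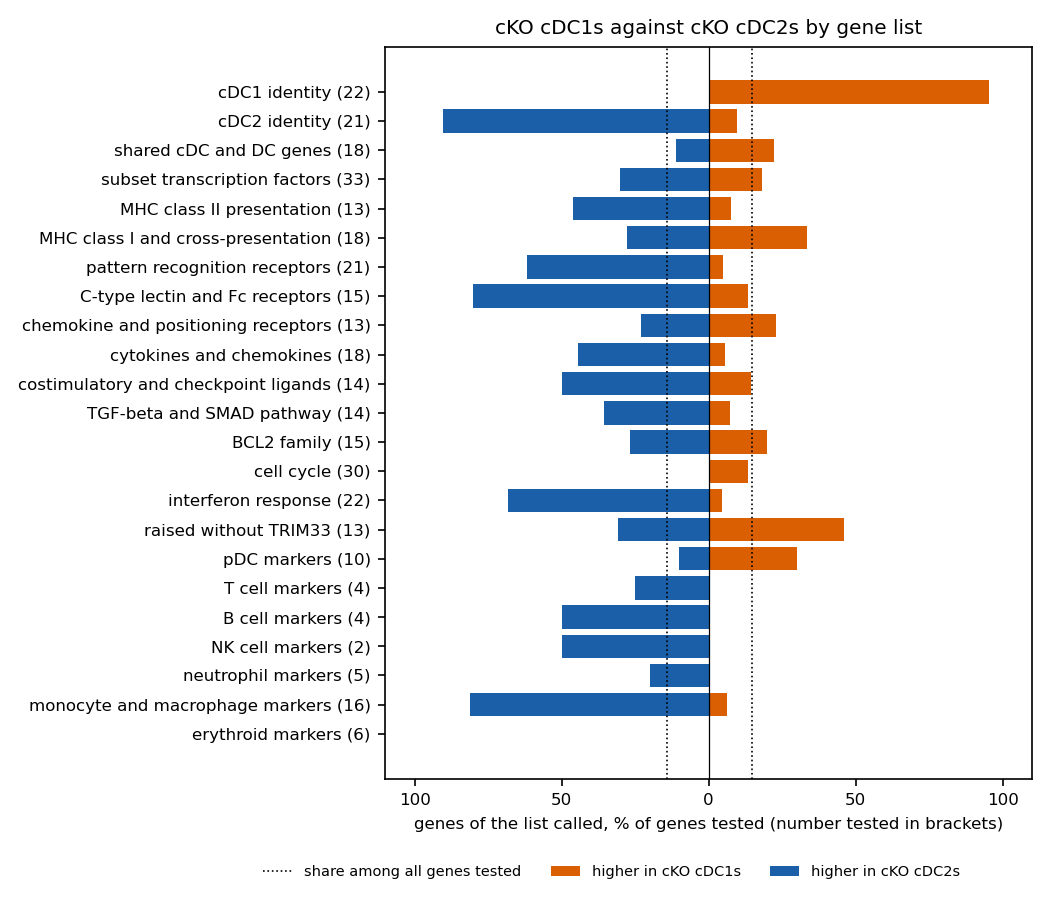
Share of the tested genes of each list (number in brackets) that were higher in cKO cDC1s (orange, to the right) or in cKO cDC2s (blue, to the left), in percent on the x axis, with dotted lines at the shares among all genes tested (14.8% and 14.0%). The cDC1 identity list reaches furthest right, and the cDC2 identity, lectin and Fc receptor, macrophage, interferon-response and pattern recognition lists furthest left.

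Among 13 genes of MHC class II presentation, 1 was higher in cKO cDC1s and 6 in cKO cDC2s, with a median of −0.33 (−0.05 in WT). These were 7.69% and 46.2% of the list, against 14.8% and 14.0% of all genes. H2-Aa, a chain of the class II molecule I-A, stood at 10123 and 11185 TPM in cKO cDC1s and 15347, 16717 and 15634 TPM in cKO cDC2s (−0.58, SE 0.11, adjusted p 0.00215), and H2-Eb1 differed by −0.73. H2-DMb2, a chain of the peptide editor H2-DM, and H2-Oa, of its inhibitor H2-O, differed by −2.22 and −1.62, while H2-DMb1 was higher in cDC1s (0.63). The lysosomal proteases Ctss and Lgmn differed by −1.48 and −1.46. The invariant chain gene Cd74 (−0.11, adjusted p 0.618) and the class II transactivator Ciita (−0.22, adjusted p 0.24) were not called. H2-Aa lost its call without either cKO cDC1 library (adjusted p 0.0135 and 0.0389) and H2-Eb1 without library 1 (0.0136), and H2-Aa was not called with median-of-ratios scaling.

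Among 18 genes of MHC class I and cross-presentation, 6 were higher in cKO cDC1s and 5 in cKO cDC2s, with a median of 0.02. These were 33.3% and 27.8% of the list, against 14.8% and 14.0% of all genes. Higher in cDC1s were some of the genes that make and load peptides, while Psmb10, Tapbp and Erap1 were not called. Tap2, a chain of the peptide transporter, stood at 242 and 242 against 116, 98.9 and 114 TPM (1.14, SE 0.12, adjusted p 3.64e-05), Tap1 differed by 0.68, the immunoproteasome subunits Psmb8 and Psmb9 by 1.04 and 0.99, and Tapbpl by 0.83. Rab43, a GTPase used in cross-presentation by cDC1s, differed by 1.34. Higher in cDC2s were the class I molecules themselves, with B2m at 3138 and 3565 against 7325, 9192 and 8195 TPM (−1.29, adjusted p 3.97e-05), H2-K1 at 946 and 1035 against 2068, 2119 and 2164 TPM (−1.1) and H2-D1 (−0.62), where H2-K1 and H2-D1 are close copies. In WT none of these last 3 was called (log2 differences −0.49, −0.2 and 0.15), and their interactions missed the threshold as well (adjusted p 0.0335, 0.0292 and 0.0378). The oxidase subunit genes Cybb (−3.25) and Rac2 (−0.85) were also higher in cDC2s. H2-D1 was not called with quantile normalization. Calls lost when 1 library was left out were those of H2-D1, Tap1 and Tapbpl (4, 3 and 4 of 10 fits, adjusted p 0.0105 to 0.0503).

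Most of the sensors of microbes in the pattern recognition list lay on the side of cDC2s. Of 21 pattern recognition genes tested, 13 were higher in cKO cDC2s and 1 in cKO cDC1s, with a median of −0.95 (−1.34 in WT). These were 61.9% and 4.76% of the genes tested, against 14.0% and 14.8% of all genes. Leaving out cKO cDC2 library 1, 2 or 3 gave 11 genes higher in cKO cDC2s each time. The sensors Tlr3 (4.97) and Tlr11 (3.06), both higher in cKO cDC1s, were counted in the cDC1 identity list and are not among the 21. Tlr7, a receptor for single-stranded RNA, stood at 3.86 and 3.31 TPM in cKO cDC1s and 45.7, 38.6 and 41.5 TPM in cKO cDC2s (−3.23, SE 0.13, adjusted p 4.96e-08), and Tlr5, the receptor for flagellin, at 1.03 and 1.36 against 26.6, 18.7 and 21.8 TPM (−3.4). Ddx58, the gene of the RNA sensor RIG-I, stood at 2.02 and 2.38 against 51.9, 41.1 and 48.8 TPM (−3.91), and Ifih1 and Nod1 differed by −1.63 and −2.39. Tlr12, a receptor for profilin of parasites, was the gene of this list higher in cDC1s, at 75.2 and 74.5 against 2.01, 1.73 and 4.53 TPM (4.41). Sting1, the adaptor of cytosolic DNA sensing, had a narrower difference in cKO, with 87.99 and 88.7 against 174, 164 and 176 TPM in cKO and 43.05 and 41.9 against 147, 171 and 172 TPM in WT (interaction 0.97, SE 0.13, adjusted p 0.00253), a call lost in 4 of 10 fits without 1 library (adjusted p 0.0108 to 0.0215).

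Of 15 C-type lectin and Fc receptor genes tested, 12 were higher in cKO cDC2s and 2 in cKO cDC1s (Clec1a, 2.46, and Cd209d, 1.49), with a median of −2.69 against −1.69 in WT. These were 80% and 13.3% of the genes tested, against 14.0% and 14.8% of all genes, so the cDC1 share was near that of all genes. Clec7a, the gene of dectin-1, stood at 6.25 and 7.34 against 132, 123 and 137 TPM (−4.08) and Fcer1g, the signalling chain of activating Fc receptors, at 242 and 255 against 1670, 1691 and 1762 TPM (−2.78). Fcgr2b, the inhibitory receptor for IgG, was called between the subsets in cKO and not in WT, with 205 and 208 TPM in cKO cDC1s, 732, 738 and 776 TPM in cKO cDC2s, 127 and 137 TPM in WT cDC1s and 68.7, 148 and 90.1 TPM in WT cDC2s. Both cKO subsets lay above both WT subsets, and the difference was −1.85 in cKO and 0.44 in WT (interaction −2.29, SE 0.34, adjusted p 0.00381). The activating receptor gene Fcgr3 differed by −4.28 in cKO and −2.69 in WT (interaction −1.59, adjusted p 0.0052). Both interactions lost their calls in 6 of 10 fits without 1 library, at adjusted p values of 0.0106 to 0.0388. Cd209d lost its call in 4 of these fits, at adjusted p values reaching 0.0604.

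Interferon-response genes were also higher in cKO cDC2s. Of 25 genes, 22 were tested, 15 were higher in cKO cDC2s and 1, Bst2 (0.52), in cKO cDC1s. These were 68.2% and 4.55% of the genes tested, against 14.0% and 14.8% of all genes. The median was −1.19 in cKO, against 0.05 over all genes, and −1.88 in WT. By limma 0 of the 22 were called in the interaction. An unadjusted p under 0.05 was seen for 10 of them and for 3441 of all 11281 genes tested. Rtp4 stood at 1.54 and 1.57 TPM in cKO cDC1s and 118, 102 and 115 TPM in cKO cDC2s (−5.46, SE 0.18, adjusted p 1.55e-08). The antiviral genes Ifit3 (3.02 and 3.74 against 59.9, 57.3 and 66.9 TPM) and Oas2 (2.46 and 2.75 against 73.4, 39.7 and 55.6 TPM) differed by −3.83 and −3.95. Of the factors that transmit the interferon signal, Stat2, Irf9 and Irf7 were not called, with differences of −0.24, −0.12 and 0.23 and adjusted p values of 0.474, 0.577 and 0.461. Without cKO cDC1 library 1, cKO cDC1 library 2 or cKO cDC2 library 3 the list had 12, 13 and 14 genes higher in cKO cDC2s. Bst2 was called in none of the other 3 scalings and lost its call without either cKO cDC1 library or without cKO cDC2 library 1 or 2 (adjusted p 0.0256 to 0.0516).

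The promoters of these genes were read for the core of the interferon-stimulated response element, GAAANNGAA on either strand, the element bound by interferon regulatory factors. The windows reached from 250 bases before to 50 after each start in RefSeq (GRCm38.p6), and 9165 of the genes tested had 11638 windows. The core was present in 7.46% of these and in 8.56% of all 32851 promoters. Among interferon-response genes, 11 of 19 windows held it, and 8 of 12 for those higher in cKO cDC2s. It was present in 15.5% of the windows of genes higher in cKO cDC2s by at least 2 and in 8.62% of those of genes higher in cKO cDC1s by at least 2. For AP-1 (TGANTCA) the same shares were 10.2% and 14.4%, against 5.07% of windows of all genes tested. A match describes the letters in the window and not binding. Windows upstream of the start are shown for 4 genes higher in cKO cDC2s and for 2 higher in cKO cDC1s that hold the core, 5′ to 3′ on the strand of the gene, with cores in capitals and both orientations marked alike. The windows lie on the plus strand at chr19:34583359-34583450 (Ifit3), chr19:34640765-34640828 (Ifit1), chr8:61928019-61928086 (Ddx60) and chr14:50357777-50357815 (Tlr11), and on the minus strand at chr4:156200861-156200911 (Isg15) and chr1:174031866-174031904 (Ifi205).
Ifit3: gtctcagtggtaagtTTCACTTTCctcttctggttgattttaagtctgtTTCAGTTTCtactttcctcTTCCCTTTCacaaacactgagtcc
Ifit1: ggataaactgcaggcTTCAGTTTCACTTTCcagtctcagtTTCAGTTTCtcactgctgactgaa
Isg15: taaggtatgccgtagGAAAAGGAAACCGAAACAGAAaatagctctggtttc
Ddx60: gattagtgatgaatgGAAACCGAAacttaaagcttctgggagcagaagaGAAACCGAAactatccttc
Ifi205: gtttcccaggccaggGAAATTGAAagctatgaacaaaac
Tlr11: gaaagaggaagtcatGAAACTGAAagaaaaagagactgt
Ifit3 and Ifit1 hold 3 cores each, Isg15 holds 3 that overlap, Ddx60 holds 2, and Ifi205 and Tlr11 hold 1 each. The window of Ifit3b, which differed by −3.39, has the same letters as that of Ifit3, and reads of these close copies may not be told apart. The differences of the genes shown were −3.83, −3.28, −0.97 and −2.86 for the genes on the cDC2 side and 5.78 and 3.06 for the others.

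Of 13 tested receptors for chemokines and for positioning, 3 were higher in each cKO subset (23.1%, against 14.8% and 14.0% of all genes), and without cKO cDC1 library 1 these counts were 2 in cDC1s and 1 in cDC2s. Cxcr3, the receptor of CXCL9 and CXCL10, stood at 48.8 and 53.6 TPM in cKO cDC1s and 2.37, 1.58 and 3.03 TPM in cKO cDC2s (3.99, adjusted p 8.21e-08), and Ccr9 and S1pr4 differed by 1.34 and 0.81. On the cDC2 side were Ccr6, at 1.6 and 1.9 against 28.7, 27.8 and 29.1 TPM (−3.43), Ccr3 (−2.22) and Gpr183, the oxysterol receptor that places cDC2s in the marginal zone bridging channel (−2.2). Ccr7, which guides mature DCs to the T cell zone, stood at 18.5 and 33.7 against 48.7, 71.2 and 88.3 TPM in cKO (adjusted p 0.0122) and at 694 and 417 against 347, 298 and 163 TPM in WT, and its interaction of −2.46 was not called (adjusted p 0.021). The difference of Ccr9 was narrower in cKO than in WT (interaction −1.1, adjusted p 0.00751), a call lost in 9 of 10 fits without 1 library. Calls of Gpr183, Ccr3 and S1pr4 were lost without 1 or either of the cKO cDC1 libraries (adjusted p 0.0120 to 0.0203).

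Cytokine and chemokine genes lay on the side of cDC2s in cKO. Of 18 tested, 8 were higher in cKO cDC2s and 1 in cKO cDC1s, whereas in WT 3 were higher in cDC2s and 5 in cDC1s, and 3 were called in the interaction, all below 0. The cKO shares were 44.4% and 5.56%, against 14.0% and 14.8% of all genes. Il12b, which encodes the p40 chain of IL-12 and IL-23, stood at 2.76 and 4.82 TPM in cKO cDC1s and 3.72, 5.21 and 6.24 TPM in cKO cDC2s, against 69.8 and 101 TPM in WT cDC1s and 7.32, 5.34 and 4.26 TPM in WT cDC2s. Its difference was −0.35 in cKO (adjusted p 0.317) and 3.7 in WT, and the interaction was −4.05 (SE 0.38, adjusted p 0.000402). Ccl22, a ligand of CCR4, changed sides, from 139.8 and 91.8 against 21.9, 30.3 and 21.6 TPM in WT to 13.6 and 14.5 against 23.5, 38.3 and 49.01 TPM in cKO (2.18 and −1.27, interaction −3.45, SE 0.4, adjusted p 0.0011). Without cKO cDC1 library 1 that interaction had an adjusted p of 0.0101, and the cKO difference alone lost its call in 4 of 10 fits (adjusted p 0.0137 to 0.0369). Ccl6 differed by −1.68 in cKO and −0.55 in WT (interaction −1.13, adjusted p 0.00381, lost in 6 of 10 fits without 1 library).

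Il1b stood at 7.79 and 10.3 TPM in cKO cDC1s and 155, 177 and 184 TPM in cKO cDC2s (−4.12, adjusted p 0.00026), and at 94.6 and 335 against 758, 252 and 183 TPM in WT, with an interaction of −3.24 that was not called (adjusted p 0.0366). Tnf stood at 9.38 and 16.6 against 51.96, 50.1 and 55.6 TPM in cKO (−1.99). Ccl5, Ccl9, Ccl3 and Il18 were also higher in cKO cDC2s, with differences of −2.76, −3.96, −2.37 and −0.8. Cxcl9, a ligand of CXCR3, was the one higher in cKO cDC1s, at 154 and 228 against 26.5, 35.5 and 41.8 TPM (2.43). The call of Ccl3 was lost without any one of the 5 cKO libraries (adjusted p 0.0177 to 0.0442) and that of Il18 without cKO cDC1 library 1 (0.0155).

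Among 14 costimulatory and checkpoint genes tested, 7 were higher in cKO cDC2s and 2 in cKO cDC1s, with a median of −0.64 (−0.26 in WT). These were 50% and 14.3% of the genes tested, against 14.0% and 14.8% of all genes. Cd86 was higher in cKO cDC1s, at 186 and 207 against 47.2, 51.3 and 58.6 TPM (1.89), and its relative Cd80 in cKO cDC2s, at 29.2 and 32.7 against 54.7, 59.1 and 56.5 TPM (−0.86). Cd274, the gene of PD-L1, stood at 5.94 and 7.87 TPM in cKO cDC1s, 98.8, 86.7 and 89.9 TPM in cKO cDC2s, 43.5 and 38.5 TPM in WT cDC1s and 159, 141 and 138 TPM in WT cDC2s. Its difference widened from −1.81 in WT to −3.56 in cKO (interaction −1.75, SE 0.18, adjusted p 0.00059). Pvr, the gene of CD155, was called in WT (31.5 and 24.7 against 6.25, 6.79 and 5.96 TPM) and not in cKO (10.3 and 12.2 against 11.8, 9.85 and 13.99 TPM), with an interaction of −2.04 (SE 0.22, adjusted p 0.000871). Lgals9, the gene of galectin-9, gave an interaction of 0.97 (adjusted p 0.00629, lost in 6 of 10 fits without 1 library). Pdcd1lg2, the gene of PD-L2, differed by −3.48, and Icosl, Vsir, Cd40 and Cd244a by −1.11, −0.9, −0.9 and −1.24. Havcr2 (TIM-3) was higher in cKO cDC1s by 0.66. Calls of Havcr2, Cd40 and Icosl were lost in 4, 3 and 4 of 10 fits without 1 library (adjusted p 0.0105 to 0.0473).

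Genes raised in the absence of TRIM33 in earlier results of these data were set side by side, since their level need not be the same in both subsets. Of 13 such genes, a list chosen on these samples and so not independent evidence of its direction, 6 were higher in cKO cDC1s and 4 in cKO cDC2s, and 4 interactions were above 0 and 3 below. The shares called in cKO were 46.2% and 30.8%, against 14.8% and 14.0% of all genes. En2, LOC108168956, Il20ra and Gstt1 are no members of that list and were taken for the size of their interaction. Cnpy1, a canopy family gene on chromosome 5, stood at 311 and 342 TPM in cKO cDC1s and 4.62, 4.26 and 4.75 TPM in cKO cDC2s, against 0.11 and 0.07 TPM in WT cDC1s and 1.36, 0.49 and 0 TPM in WT cDC2s. The 2 cKO subsets were apart by 5.88 (SE 0.28, adjusted p 1.14e-07), and the interaction of 6.36 (SE 0.39, adjusted p 5.55e-05) was the largest among the genes named here. Its neighbour En2, a homeobox gene, stood at 71.5 and 78.1 against 2.91, 3.91 and 3.82 TPM (interaction 4.3, adjusted p 5.55e-05). Epb41l4b, a band 4.1 family gene on chromosome 4, stood at 599 and 629.9 against 42.7, 43.5 and 46.7 TPM (interaction 4.46, adjusted p 0.0012), and LOC108168956 beside it at 64.1 and 56.6 against 3.94, 3.5 and 3.96 TPM (interaction 3.92). In WT none of these 4 genes exceeded 5.21 TPM in any cDC library.

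Il20ra, a chain of the receptors for IL-20 family cytokines, was present in cKO cDC1s alone, at 18.6 and 18.6 TPM, with 0.10, 0.09 and 0 TPM in cKO cDC2s and at most 0.06 TPM in WT (interaction 4.16, adjusted p 1.29e-05). At this depth 3 reads on a 2000-base transcript came to 0.142 to 0.173 TPM. Apcdd1, an inhibitor of Wnt signals, stood at 159.8 and 167 against 25.4, 25.8 and 32.4 TPM (interaction 3.28, adjusted p 0.000842) and Hsd17b6, a hydroxysteroid dehydrogenase, at 704 and 814 against 108, 128 and 112 TPM (2.7, adjusted p 0.0021, 0.0162 and 0.0214 without either cKO cDC1 library). On the side of cDC2s were Flrt3 (51.3 and 51.6 against 176, 189 and 171 TPM, interaction −1.67, adjusted p 0.000886), the casein gene Csn2 (7.87 and 11.7 against 47.9, 58.8 and 53.9 TPM, interaction −2.05, adjusted p 0.00346) and Gstt1, a glutathione transferase, at 1.02 and 0.58 against 24.8, 33.7 and 33.96 TPM (interaction −4.1, adjusted p 0.00346). Atp1b3, a subunit of the sodium pump, changed sides, from 237 and 227 against 77.9, 117 and 84.3 TPM in WT to 1525 and 1684 against 2611, 2505 and 2389 TPM in cKO (interaction −1.97, adjusted p 0.000842). Selenbp2 was not called between the cKO subsets, at 179 and 179.9 and 193, 185 and 159 TPM (0.01, SE 0.29, adjusted p 0.986), nor was Cgn, at 5.39 and 5.01 and 6.88, 5.77 and 5.48 TPM (−0.18, SE 0.14). The other members were Cox6a2 (−1.24) and Gm42226 (1.27), both called, and Cep83 (−0.73, adjusted p 0.0831). The call of Cox6a2 was lost without cKO cDC1 library 1 or 2 or cKO cDC2 library 1 or 2 (adjusted p 0.0186 to 0.0438) with log2(TPM + 0.1), with no filter on low values and with the replicate blocks, and that of Gm42226 without cKO cDC1 library 1 (0.0122). Tuft1 stood at 461 and 504 against 261, 263 and 239.6 TPM (interaction 1.08, adjusted p 0.00238, not called with median-of-ratios scaling or quantile normalization). Without 1 library the interaction calls of Epb41l4b (0.0101 without cKO cDC1 library 1), Gstt1 (5 of 10 fits, up to 0.0222), Csn2 (5, up to 0.0246) and Tuft1 (4, up to 0.0201) were lost, and the cKO difference of Atp1b3 lost its call without any one of the 5 cKO libraries (up to 0.0626) and with quantile normalization.

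A further group of genes marked WT cDC1s and had a smaller difference between the cKO subsets. Fcrla, an intracellular Fc receptor-like protein gene on chromosome 1, stood at 169.9 and 129 TPM in WT cDC1s, 3.27, 5.04 and 3.2 TPM in WT cDC2s, 47.6 and 49.3 TPM in cKO cDC1s and 20.3, 20.2 and 19.1 TPM in cKO cDC2s. The cDC1 level was lower and the cDC2 level higher in cKO than in WT, and the difference went from 4.96 to 1.24 (interaction −3.72, SE 0.24, adjusted p 5.55e-05). Its neighbour Fcrlb stood at 16.4 and 21.8 against 18.3, 17.2 and 18.5 TPM in cKO, a difference of 0.07 (adjusted p 0.801), after 2.99 in WT (interaction −2.92, adjusted p 0.000439). For Plcb4, a phospholipase C, the cDC2 level was the one that was higher in cKO, with 30.3 and 28.98 against 4.7, 4.41 and 2.83 TPM in WT and 39.4 and 37.2 against 39.9, 32.5 and 36.8 TPM in cKO (interaction −2.57, SE 0.23, adjusted p 0.000398).

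For most of the others the cDC1 level was lower in cKO than in WT. Gclc, which makes glutathione, stood at 224 and 128 against 21.4, 24.7 and 26.2 TPM in WT and 25.3 and 28.9 against 23.9, 21.3 and 25.8 TPM in cKO (interaction −2.58, adjusted p 0.000917). Mab21l3 stood at 59.2 and 42.8 TPM in WT cDC1s and 2.14 and 4.21 TPM in cKO cDC1s (interaction −3.64, adjusted p 0.00111), and Proser2 gave an interaction of −2.64 (adjusted p 0.000402). Apol7c, an apolipoprotein L gene of cDC1s, stood at 2798 and 1969 against 306, 574 and 344 TPM in WT and 102 and 137 against 94.9, 132 and 187 TPM in cKO (interaction −2.75, SE 0.45, adjusted p 0.00633). Apol7b and Apol7a beside it on chromosome 15, close copies between which reads may not be told apart, gave −2.67 and −2.63. Ifnlr1, the receptor for interferon lambda, stood at 11.96 and 11.7 against 1.02, 1.29 and 1.66 TPM in WT and 1.22 and 1.35 against 1.3, 0.95 and 1.53 TPM in cKO (interaction −2.45, adjusted p 0.000426). Ppt2, Src, Glipr2 and Enpp5 had cKO differences of 0.17, 0.17, −0.12 and −0.17 after 2.39, 2.35, 2.5 and 2.07 in WT (interactions −2.22, −2.18, −2.62 and −2.24). Without 1 library the interactions of Apol7a, Apol7c, Glipr2, Src and Apol7b lost their calls in 9, 7, 7, 5 and 3 of 10 fits, at adjusted p values up to 0.0508.

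**Figure D5:**
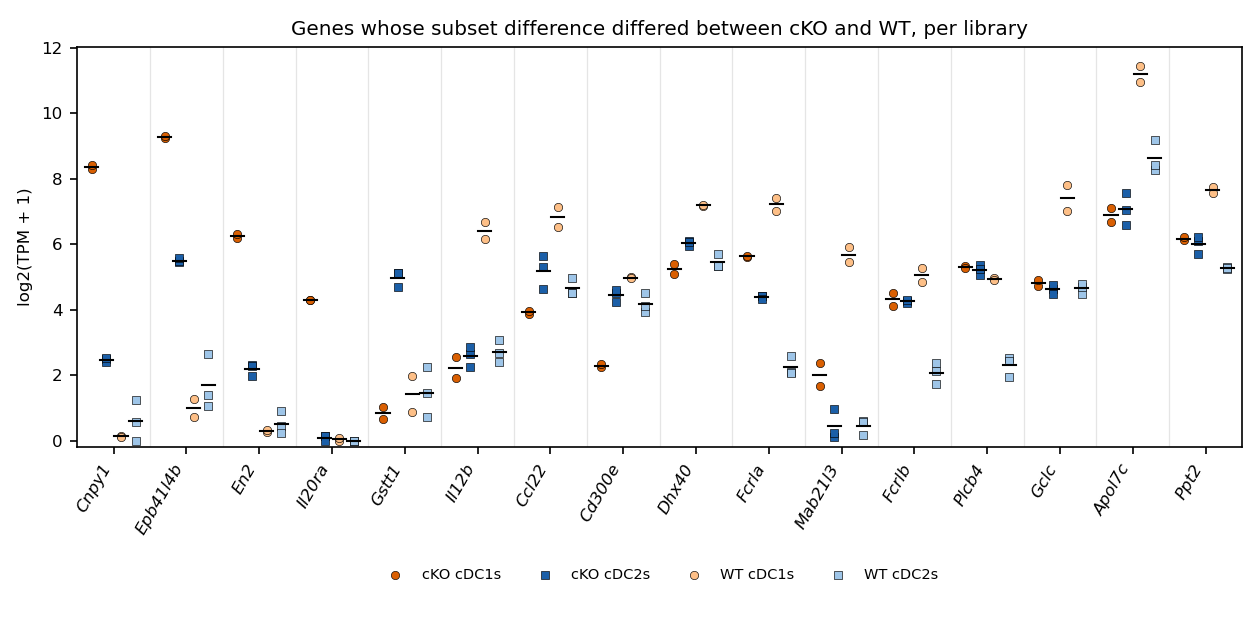
Level of 16 genes with a called interaction as log2(TPM + 1) (y axis) in each of the 10 cDC libraries, 1 point per library with the group mean as a bar, for cKO cDC1s, cKO cDC2s, WT cDC1s and WT cDC2s from left to right within a gene. The first 5 genes separate the cKO subsets and not the WT ones, Ccl22, Cd300e and Dhx40 change sides, and Il12b and the last 7 separate the WT subsets more than the cKO ones.

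Cd300e, Dhx40, Zfyve9, Gstp3, Myof, Abcg1 and Scube3 were, with Ccl22, 8 of the 14 genes called in opposite directions, taken by the smaller of both differences, and all 8 were higher in WT cDC1s and in cKO cDC2s. Cd300e, an activating receptor of myeloid cells, stood at 30.6 and 29.9 against 14.2, 21.7 and 16.1 TPM in WT and 3.72 and 4.03 against 21.6, 17.6 and 23.1 TPM in cKO (interaction −2.94, SE 0.24, adjusted p 0.000217). Dhx40, an RNA helicase gene, stood at 144 and 145 against 38.9, 39.6 and 51.05 TPM in WT and 41.2 and 32.7 against 67.1, 60.4 and 65.5 TPM in cKO (interaction −2.52, adjusted p 0.000139). Zfyve9, an anchor for SMADs at TGF-β receptors, gave an interaction of −2.06 (adjusted p 0.000402). Gstp3, Myof, Abcg1 and Scube3 gave −3.03, −2.13, −1.78 and −2.51. Without 1 library the cKO differences of Gstp3, Myof, Abcg1, Scube3 and Dhx40 and the interactions of Myof, Abcg1 and Scube3 lost their calls in 1 to 4 fits each, at adjusted p values up to 0.0314, most often without a cKO cDC1 library.

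In the TGF-β and SMAD pathway, in which TRIM33 acts, 14 of 16 genes were tested, and 5 were higher in cKO cDC2s (Tgfbr1, −1.18, Acvr2a, −1.33, Smad7, −0.97, Smad4, −0.89, and Acvr1b, −0.61). Trim28, a relative of Trim33, was higher in cKO cDC1s by 0.68. The shares called were 35.7% toward cDC2s and 7.14% toward cDC1s, against 14.0% and 14.8% of all genes. By limma 0 of the 14 were called in the interaction. Its unadjusted p was under 0.05 for 3 of them and for 3441 of all 11281 genes tested. The calls of Smad7, Acvr1b and Trim28 were lost in 1, 4 and 7 of 10 fits without 1 library (adjusted p 0.0104 to 0.0647). In the BCL2 family, 3 of 15 tested genes were higher in cKO cDC1s (Bid, 1.05, Bad, 0.8, and Bak1, 0.5) and 4 in cKO cDC2s (Bcl2a1b, −2.47, Pmaip1, −1.64, Bmf, −1.38, and Bcl2a1a, −0.89). These were 20% and 26.7% of the genes tested, against 14.8% and 14.0% of all genes. Bak1 was called in none of the other 3 scalings and Bcl2a1a not with FPKM. Bcl2l11, the gene of the death-inducing protein BIM, stood at 82.7 and 82.5 TPM in cKO cDC1s and 71.7, 60.5 and 67.6 TPM in cKO cDC2s (adjusted p 0.101), while in WT it stood at 50.7 and 37.6 against 12.4, 13.9 and 15.7 TPM (1.58). The cKO libraries of both subsets lay above all WT libraries, and the interaction was −1.27 (SE 0.2, adjusted p 0.00531), lost in 6 of 10 fits without 1 library (adjusted p 0.0116 to 0.0371). Pmaip1, Bcl2a1a and Bak1 lost their calls in 5, 4 and 4 such fits.

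All 30 cell cycle genes were tested, and 4, or 13.3% against 14.8% of all genes, were higher in cKO cDC1s (Mcm6, 0.75, Dut, 0.64, Mcm2, 0.62, and Mcm3, 0.51) and 0 in cKO cDC2s by limma, with 8 and 0 at an unadjusted p under 0.05, and the median was 0.22 against 0.05 over all genes. Mcm3 was called in none of the other 3 scalings. Mki67, a mark of cycling cells, stood at 116 and 92.05 TPM in cKO cDC1s and 91.3, 105 and 84.9 TPM in cKO cDC2s (adjusted p 0.642), against 28.4 and 49.1 TPM in WT cDC1s and 60.1, 65.1 and 87.6 TPM in WT cDC2s. Without either cKO cDC1 library 1 of the 4 was still called.

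Markers of other cells that the gates could hold were checked in the same way. In sorted bulk samples fewer cells of a type and less RNA per cell cannot be told apart. Of 16 monocyte and macrophage genes tested, 13 were higher in cKO cDC2s and 1 (Ly6c2, 1.54) in cKO cDC1s. These were 81.2% and 6.25% of the list, against 14.0% and 14.8% of all genes. The summed level of the list was 541.7 and 561.4 TPM in cKO cDC1s and 2726 to 3632 TPM in cKO cDC2s. In WT it was 924 and 1065 TPM in cDC1s and 1440 to 2163 TPM in cDC2s. The median difference of the list was −2.77 in cKO and −1.64 in WT, and 14 of the 16 genes had a difference of larger size in cKO. Lyz2, the gene of lysozyme, made up most of it, at 288 and 279.8 against 1945, 1981 and 2449 TPM. Adgre1, the gene of F4/80, stood at 2.28 and 3.07 against 152, 152 and 147 TPM and C1qa, a chain of complement C1q, at 4.4 and 6.48 against 113, 94.95 and 152 TPM. Spic, a factor of red pulp macrophages (1.25 and 1.51 against 29.98, 29.4 and 43.00 TPM), and Treml4 (126 and 155 against 134, 107 and 131 TPM) gave interactions of −2.35 and −1.69 (adjusted p 0.00822 and 0.00253), lost in 7 and 3 of 10 fits without 1 library, and Spic was not called with FPKM or quantile normalization. Without cKO cDC1 library 1, cKO cDC1 library 2 or cKO cDC2 library 3 the list had 9, 9 and 11 genes higher in cKO cDC2s, and without cKO cDC1 library 1 Ly6c2 lost its call (adjusted p 0.0125). Their part in the genes higher in cKO cDC2s, the lectin, Fc receptor and interferon-response genes included, was not tested.

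The summed level of 8 NK cell genes was 35.9 and 40.3 TPM in cKO cDC1s and 239 to 267 TPM in cKO cDC2s, nearly all of it Klrd1 (−2.78), while Ncr1 and Prf1 stayed at 0.36 TPM or less. The 8 listed B cell genes summed to 18.7 and 19.8 against 53.2 to 54.4 TPM, of which Cd79b (−2.34) was the largest part, and Blk gave an interaction of 2.2 (adjusted p 0.00317, lost without cKO cDC1 library 2, cKO cDC2 library 3 or WT cDC1 library 1). The 9 listed T cell genes summed to 10.2 and 11.0 against 31.8 to 37.8 TPM, with Cd5 (−1.72) leading and Cd3e at 0.65 TPM or less. The neutrophil list summed to 23.3 and 41.7 against 57.8 to 103 TPM, with Csf3r (−3.61) the one gene called. Of 10 pDC genes tested, 3 were higher in cKO cDC1s and 1, Lair1 (−2.75), in cKO cDC2s. These were 30% and 10% of the genes tested, against 14.8% and 14.0% of all genes. The interactions of Ccr9, Pacsin1 (−1.6, adjusted p 0.00748) and Cd300c (−1.6, adjusted p 0.00606) were below 0. Pacsin1 and Cd300c each lost this call in 8 of 10 fits without 1 library (adjusted p 0.0111 to 0.0565 and 0.0112 to 0.0346), Pacsin1 fell below the limit with FPKM, and without cKO cDC1 library 1 or 2 or cKO cDC2 library 1 or 2 the pDC genes higher in cKO cDC1s numbered 1. Erythroid genes summed to 1008 and 1252 against 1529 to 2302 TPM and 0 of 6 were called by limma, with 0 at an unadjusted p under 0.05. No platelet gene reached the limit of 1 TPM. No listed marker gene was at 0 in all 5 cKO libraries, and the part of these cells in the results was not tested.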

How the data were processed

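RNA was extracted with TRIzol from sorted splenic cells and sequenced as single-end 50-base reads on a BGISEQ-500. The authors filtered reads with SOAPnuke, aligned them to mm10 transcripts with Bowtie2 2.2.5 and estimated expression with RSEM 1.2.12, and the submitters' processing notes also name HISAT2 2.0.4. The release of the transcript reference is not given in the sources used here. The authors deposited a table of TPM and a table of FPKM per gene for the 10 cDC libraries, and no count values were used. The TPM were analysed, and the deposited FPKM served as an alternative and for estimating depth from the steps between low values.

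Values were taken as log2(TPM + 1), so that fold changes of low genes are understated. Genes with a mean of at least 1 TPM over the 5 cKO libraries were kept, and limma 3.58.1 (R 4.3.3) with a mean-variance trend was fitted to all 10 libraries as 4 group means. Groups were set by the labels. The subset differences of cKO and of WT and the difference between them (the interaction) were tested, with Benjamini-Hochberg adjustment over 11281 genes. Calls needed an adjusted p no higher than 0.01 and a log2 difference of 0.5 or more in size, the limits that the study applied to dendritic cells with a count model. limma took the place of that model because the values are not counts. Depth was 18.4 to 20.1 M reads, and intervals and floors cover counting error only. The 2 or 3 libraries per group are described as biological replicates and were pools of several mice, with more mice per cKO pool. The p-values rest on a spread between pools that was shared by all 4 groups and moderated across genes. They do not measure the spread between single animals or within the compared groups alone.

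Named genes were the 12 with the largest cKO difference in each direction and at least 10 TPM in the higher group, the 8 with the largest interaction among wider and among narrower differences, up to 8 called in opposite directions, the 8 nearest to 0 in cKO among those called at 2 or more in WT, and members of gene lists. The members and lists were chosen with earlier results of these data known. Deviations from the group mean of same-numbered cDC1 and cDC2 libraries had an r of −0.07 and 0.03 in cKO and −0.53 and −0.38 in WT. With 2 cDC1 libraries per genotype, the deviations of libraries 1 and 2 are exact opposites. These r values therefore cannot decide whether libraries were paired, and the labels name no shared animals. Alternatives were another pseudocount, other filters, FPKM, median-of-ratios scaling, quantile normalization, no trend, replicate blocks, other thresholds, a fit of the 5 cKO libraries alone and leaving out each library. Scripts were tested on simulated data. Tables were made with Python 3.11.15, pandas 2.3.3 and numpy 2.4.6.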

Additional observations from a re-analysis of the deposited data

Results flagged for a closer look

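The subset difference itself differed between cKO and WT, by the interaction term of the limma fit, for 55 of the genes named above, and the value after each gene is the cKO difference minus the WT difference on the log2 scale. A difference of the same sign and larger size in cKO was found for Il20ra (4.16), Gstt1 (−4.1), Ace (−3.09), Spic (−2.35), Pltp (−2.25), Csn2 (−2.05), Cd274 (−1.75), Flrt3 (−1.67), Fcgr3 (−1.59), Ccl6 (−1.13) and Sirpb1c (−0.97). The sign of the same gene's difference was opposite in cKO and WT, whether or not each was called, for Cnpy1 (6.36), Epb41l4b (4.46), En2 (4.3), Il12b (−4.05), LOC108168956 (3.92), Ccl22 (−3.45), Apcdd1 (3.28), Gstp3 (−3.03), Cd300e (−2.94), Apol7c (−2.75), Glipr2 (−2.62), Dhx40 (−2.52), Scube3 (−2.51), Fcgr2b (−2.29), Enpp5 (−2.24), Myof (−2.13), Zfyve9 (−2.06), Pvr (−2.04), Atp1b3 (−1.97), Abcg1 (−1.78) and Tuft1 (1.08). A difference of the same sign and smaller size in cKO was found for Fcrla (−3.72), Mab21l3 (−3.64), Fcrlb (−2.92), Apol7b (−2.67), Proser2 (−2.64), Apol7a (−2.63), Gclc (−2.58), Plcb4 (−2.57), Ifnlr1 (−2.45), Itgae (−2.26), Ppt2 (−2.22), Blk (2.2), Src (−2.18), Cd22 (1.93), Ets1 (1.84), Treml4 (−1.69), Pacsin1 (−1.6), Cd300c (−1.6), Cd7 (1.37), Bcl2l11 (−1.27), Ccr9 (−1.1), Lgals9 (0.97) and Sting1 (0.97). No cause was tested.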

How the results depend on the processing

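No called difference of a listed or named gene changed sign under the alternatives run, but the larger side of the split over all genes did: genes higher in cKO cDC1s and cDC2s numbered 947 and 1055 without cKO cDC1 library 1 and 1459 and 1516 with FPKM, against 1669 and 1574, and it also turned with median-of-ratios scaling, without cKO cDC1 library 2 or cKO cDC2 library 2, and at a log2 difference of at least 1. The WT split turned with median-of-ratios scaling and quantile normalization. Leaving out 1 library at a time gave 947 to 1791 genes higher in cKO cDC1s (main 1669), 1055 to 1658 higher in cKO cDC2s (1574) and 62 to 256 called interactions (271). With an adjusted p of at most 0.05 and no fold limit there were 2797 genes higher in cKO cDC1s, 1237 interactions (832 above 0 and 405 below), 1839 genes higher in WT cDC1s and 3644 in WT cDC2s. With a log2 difference of at least 1 there were 668 higher in cKO cDC1s, 986 in cKO cDC2s, 667 in WT cDC1s and 1179 in WT cDC2s. With the replicate number as a block, 128 interactions were called (47 above 0 and 81 below) and with a replicate block within each genotype 6 (5 and 1), and the latter gave 1130 and 1095 genes in cKO and 1518 higher in WT cDC2s. The replicate numbers are not known to pair libraries, so these blocks are no better founded than the fit without them. Interactions split into 118 above 0 and 173 below with FPKM, 95 and 264 with median-of-ratios scaling and 91 and 209 with quantile normalization. The cause of these shifts was not tested. With 2 cDC1 libraries per genotype, calls that rest on 1 library and genes near 1 TPM are the least certain.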
